A study of Mus musculus with 7 samples.

Results

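Described here were 9 genes that mark the path from cortical progenitor to excitatory neuron, namely *Neurog1*, *Neurog2*, *Gadd45g*, *Eomes*, *Insm1*, *Neurod4*, *Neurod1*, *Neurod2* and *Neurod6*. They were chosen by symbol among the 38124 genes of the count table, and all 9 were found. The RNA had been sequenced in 7 libraries, each of High RFP cells, which are the most strongly fluorescent cells sorted from E15.5 mouse neocortex. All embryos were heterozygous *Tis21*-CreERT2 mice whose mothers had received tamoxifen, and their neocortex had been electroporated in utero at E13.5, 48 hr earlier. In 3 libraries (Control 1, 2 and 4) the construct was the control, from which Cre leaves nuclear RFP alone, and in 4 libraries (Sox9 1 to 4) it was the conditional Sox9 expression construct, from which Cre allows Sox9 to be made together with nuclear RFP. The CreERT2 cassette sits in the *Tis21* gene (*Btg2*), so both groups carried 1 altered *Tis21* allele, recombination was limited to cells with *Tis21* activity, and each library pooled cortices of several embryos.

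The proneural factors Neurog1 and Neurog2 start neurogenesis in apical radial glia of the dorsal telencephalon. As cells leave the ventricular surface and become basal progenitors (BPs), the T-box factor Tbr2, encoded by *Eomes*, and the zinc finger factor Insm1 appear, together with Gadd45g and Neurod4. Neurod1 marks late BPs and newborn neurons, while Neurod2 and Neurod6 persist in postmitotic projection neurons. The Neurog and Neurod proteins share a basic helix-loop-helix (bHLH) domain, pair with E proteins, and bind the hexamer CANNTG (E-box, with N any base).

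Total counts were 10465562 to 12907778 in the control libraries and 4429704 to 10520214 in the Sox9-labelled ones. *Sox9* mRNA itself was not higher in the latter, at 63.9 ± 27.5 (SD, n = 3) CPM in control and 40.0 ± 8.33 (SD, n = 4) in the Sox9-labelled libraries (log2 fold change -0.68, SE 0.25, adjusted p = 0.0493 by edgeR's quasi-likelihood test). Without Control 1, the *Sox9* change was -0.99 with an adjusted p of 0.00281. The groups are therefore named by their labels. CPM here relate a count to the TMM-scaled size of its library, and a gene was called when its adjusted p was under 0.01 over the 16522 genes tested. Scaling by total counts in place of TMM raises every log2 fold change by 0.23.

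The bHLH factors resemble each other at the DNA-binding end of the domain, which is shown because reads must tell these genes apart. The coding stretch of 42 bases below, from GENCODE transcripts of GRCm38, starts at the same residue of the basic region in all 6 genes, and capitals mark the 22 bases that are identical in all 6.
Neurog1: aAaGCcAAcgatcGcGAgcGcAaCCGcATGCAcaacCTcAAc
Neurog2: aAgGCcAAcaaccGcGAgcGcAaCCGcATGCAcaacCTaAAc
Neurod4: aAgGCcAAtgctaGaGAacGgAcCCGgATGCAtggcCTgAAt
Neurod1: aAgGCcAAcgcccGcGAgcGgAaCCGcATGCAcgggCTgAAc
Neurod2: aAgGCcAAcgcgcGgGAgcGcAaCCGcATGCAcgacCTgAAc
Neurod6: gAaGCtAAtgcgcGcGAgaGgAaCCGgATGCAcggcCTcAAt
*Neurog1* and *Neurog2* matched at 38 of the 42 bases and *Neurod1* and *Neurod2* at 37, whereas *Neurog2* and *Neurod4* matched at 27. Over whole transcripts, the longest exact run shared by any pair of these 6 genes was 26 bases, between *Neurog1* and *Neurog2*, followed by 25 bases between *Neurod1* and *Neurod2*. *Insm1* and *Neurod6* shared a run of 42 bases. All these runs were shorter than a sequenced read. For *Eomes*, 118 of 4155 exonic bases overlap the antisense gene *Gm33460*, and for *Neurod1*, 201 of 2729 exonic bases overlap *Cerkl* and 154 overlap *Gm26755*. *Gm33460* and *Gm26755* lie on the opposite strand, and the strand setting of the counting is not given in the sources used here. Reads in these overlaps could therefore not be assigned to either gene. *Cerkl* lies on the same strand as *Neurod1*, so no strand setting would separate the reads they share.

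Promoter windows of 250 bases before the RefSeq start (GRCm38.p6) were matched for 8 of the 9 genes, with no entry for *Insm1*. Printed below, 5' to 3' on the gene's strand, are those of the pair that fell and of *Neurod6*, the factor with the highest level. They are *Eomes* (chr9:118477939-118478188, plus strand), *Neurod4* (chr10:130280255-130280504, minus strand) and *Neurod6* (chr6:55681264-55681513, minus strand). No annotated exon lies in these windows, and capitals mark matches to the E-box or to the TATA-type motifs TATAAA (the shorter) and, with 1 base more, TATATAA (the longer).
Eomes: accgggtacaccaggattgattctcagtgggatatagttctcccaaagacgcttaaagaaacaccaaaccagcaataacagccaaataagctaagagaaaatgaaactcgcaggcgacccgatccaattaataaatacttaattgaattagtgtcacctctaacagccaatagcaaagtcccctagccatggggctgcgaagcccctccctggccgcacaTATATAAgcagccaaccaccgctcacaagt
Neurod4: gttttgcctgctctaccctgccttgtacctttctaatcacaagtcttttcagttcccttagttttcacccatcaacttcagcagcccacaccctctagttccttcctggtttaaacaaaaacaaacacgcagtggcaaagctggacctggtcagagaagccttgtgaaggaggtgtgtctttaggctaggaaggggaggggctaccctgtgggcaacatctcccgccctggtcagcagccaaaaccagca
Neurod6: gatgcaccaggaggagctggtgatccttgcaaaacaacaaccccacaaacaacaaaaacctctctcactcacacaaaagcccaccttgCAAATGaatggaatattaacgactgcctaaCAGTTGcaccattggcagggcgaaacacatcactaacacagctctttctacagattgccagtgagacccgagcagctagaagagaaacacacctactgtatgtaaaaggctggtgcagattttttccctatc
*Eomes* held the longer TATA-type motif 30 bases before its start and no E-box. The *Neurod4* window held none of the motifs searched, which on both strands were the E-box, both TATA-type motifs, a core of Sox-type sites (ACAATG in letters) and the T-box motif AGGTGTGA. The Sox-type core ACAAAG was searched as well, with no match in any of the 8 genes. *Neurod6* held 2 E-boxes, which began 162 and 132 bases before its start. Among all 32807 windows of this length, 66.2% held an E-box, 12.4% the shorter and 3.04% the longer TATA-type motif, 10.7% the Sox-type core named earlier, 16.5% the other and 1.12% the T-box motif. The longer TATA-type motif was also found in *Neurog2* and *Neurod1*, the shorter in *Gadd45g*, and the Sox-type core named earlier, on the other strand, in *Neurog1*. *Gadd45g* and *Neurod2* each held 3 E-boxes and *Neurod1* held 1. The TATA-type motifs can overlap in 1 stretch, and a match is a description of the letters, not a binding site.

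*Eomes* and *Neurod4*, which mark BPs and cells committed to the neuronal lineage, fell in the Sox9-labelled libraries, to 4.78-fold and 8.06-fold lower mean CPM. None of the other 7 was called, and their log2 fold changes lay between -0.71 and 1.15. Thus 2 of the 9 genes were called lower and 0 higher by edgeR's quasi-likelihood test, while among all genes tested 3.43% were called lower (567 genes) and 11.3% higher (1862 genes). Log2 fold changes were below 0 for 8 of the 9 genes with a median of -0.43, beside -0.0031 over all genes tested. Of all genes tested, 47.1% had a value below that of *Insm1*, the highest of these 8. The median over all genes also depended on level, from 1.55 up to 1 log2 CPM to -0.20 between 4 and 7 and -0.27 above 7. DESeq2 called 4 of the 9 genes lower and 0 higher, beside 5.65% and 8.75% of the 22497 genes it tested. At an unadjusted p under 0.05 in edgeR, 5 were lower and 0 higher, beside 17.3% and 26.8% of all genes tested. At an adjusted p under 0.05, 4 of the 9 were lower and 0 higher, beside 10.8% and 21.9% of all genes tested.

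**Figure D1:**
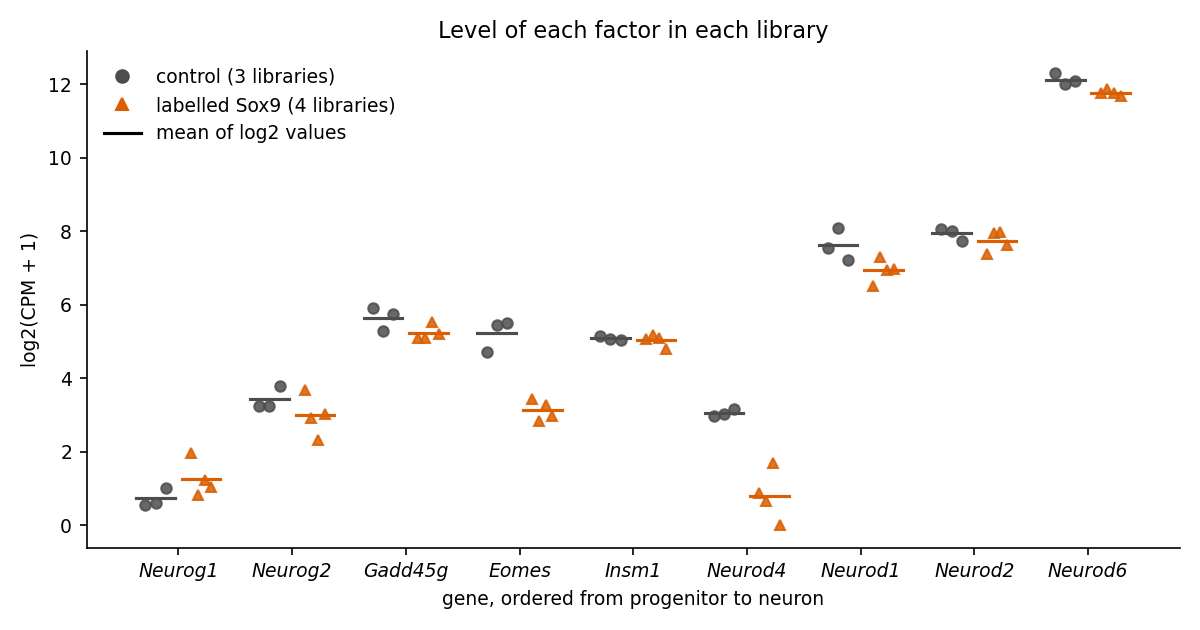
Level of each of the 9 factors as log2(CPM + 1) in the 3 control libraries (circles) and the 4 libraries labelled Sox9 (triangles), with genes ordered from progenitor to neuron and bars at the mean of the log2 values. The groups stand apart for *Eomes* and *Neurod4*, with 4.78-fold and 8.06-fold lower mean CPM, and lie close together or overlap for the others.

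The earliest factors of the order were present at low levels. *Neurog1* (ENSMUSG00000048904, chr13:56250478-56252163, minus strand) was counted 5, 6 and 10 times in control and 21, 8, 12 and 5 times in the Sox9-labelled libraries. The mean level was 0.672 ± 0.3 (SD, n = 3) CPM and 1.51 ± 0.948 (SD, n = 4) CPM, and the log2 fold change 1.15 (SE 0.58, 95% interval -0.08 to 2.39, adjusted p = 0.138). Its groups overlapped, with 3 of the 4 libraries labelled Sox9 above the highest control library, and a change of this gene was not resolved at this depth. Genes of like level had a median log2 fold change of 1.5, and under cyclic loess normalization fitted by limma-trend, an alternative that changes both the scaling and the test, its change was -0.49. Its paralog *Neurog2* (ENSMUSG00000027967, chr3:127633135-127635631, plus strand), the main proneural factor of the dorsal telencephalon, stood at 8.51, 8.52 and 12.8 CPM in control and at 11.9, 6.61, 4.02 and 7.13 CPM in the Sox9-labelled libraries. The groups overlapped, since Sox9 1 lay close to the highest control library while the other three lay below all controls. The log2 fold change was -0.43 (SE 0.32, 95% interval -1.12 to 0.27, adjusted p = 0.331), an interval that includes 0.

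*Gadd45g* (ENSMUSG00000021453, chr13:51846678-51848468, plus strand) encodes a small growth arrest protein that is transiently made as progenitors commit to differentiation. It stood at 58.7, 37.8 and 53.0 CPM in control and at 33.5, 33.5, 45.3 and 35.7 CPM in the Sox9-labelled libraries. Control 2 lay among the libraries labelled Sox9, so the groups overlapped. The log2 fold change was -0.43 (SE 0.17, 95% interval -0.80 to -0.06, adjusted p = 0.072), beside a median of -0.19 for genes of like level.

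*Eomes* (ENSMUSG00000032446, chr9:118478212-118486132, plus strand) was counted 264, 494 and 437 times in the control libraries and 71, 65, 77 and 33 times in the Sox9-labelled ones. In CPM these are 25.2, 42.9 and 44.5 against 9.75, 6.14, 8.61 and 6.92. The highest library labelled Sox9 therefore lay well under Control 1, the lowest control library, and the spread within the labelled group was small. Its fall of -2.25 on the log2 scale (SE 0.23, 95% interval -2.76 to -1.75) had an adjusted p of 4.87e-05, and 40 of all genes tested had a lower log2 fold change. The exact permutation test over all 35 ways to divide the libraries gave p = 0.0286, the smallest value this design allows. Genes of like level had a median of -0.13, of which 4.86% were called lower. *Eomes* was called under all 8 alternatives, with changes of -2.35 to -2.12, and whichever of the 7 libraries was left out, with -2.49 to -2.10.

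*Insm1* (ENSMUSG00000068154, chr2:146221921-146225020, plus strand) encodes the zinc finger factor that promotes the delamination of BPs from the apical surface. Its levels were 34.6, 32.7 and 32.1 CPM in control and 32.6, 35.2, 33.3 and 26.6 CPM in the Sox9-labelled libraries. All 7 libraries were close to each other, with Sox9 4, the library of lowest depth, at the bottom. The log2 fold change was -0.05 (SE 0.15, 95% interval -0.37 to 0.28, adjusted p = 0.837), an interval that lies wholly above that of *Eomes*. Without Sox9 4 it was 0.08.

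*Neurod4* (ENSMUSG00000048015, chr10:130268152-130280240, minus strand), a bHLH factor of committed progenitors and newborn neurons, was counted 71, 83 and 78 times in control. In the libraries labelled Sox9 it was counted 6, 6, 20 and 0 times. The corresponding levels were 6.79, 7.21 and 7.93 CPM against 0.824, 0.567, 2.24 and 0 CPM. Control libraries were thus tightly grouped and all above the libraries labelled Sox9, and the 0 of Sox9 4 allows a level of up to 0.629 CPM (3 counts, counting error only). The log2 fold change was -2.88 (SE 0.53, 95% interval -4.02 to -1.74, adjusted p = 0.00182), and 3 of all genes tested had a lower one. In the exact permutation test, *Neurod4* reached p = 0.0286, the smallest value possible. Genes of like level had a median of 0.59, with 24.6% of them called higher and 1.15% lower. *Neurod4* was called whichever of the 7 libraries was left out (changes of -3.77 to -2.53) and under the 7 alternatives that gave it a value (-4.18 to -2.72).

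*Neurod1* (ENSMUSG00000034701, chr2:79452521-79456751, minus strand) follows in late BPs and newborn neurons. It stood at 187, 271 and 149 CPM in control and at 90.7, 156, 122 and 125 CPM in the Sox9-labelled libraries. Sox9 2 lay above Control 4, so the groups overlapped, although the group means were 202 ± 62.6 (SD, n = 3) and 124 ± 26.9 (SD, n = 4) CPM. The log2 fold change of -0.71 (SE 0.19, 95% interval -1.12 to -0.30) had an adjusted p of 0.0136 and was not called. It was called without Control 4 (-0.87, adjusted p = 0.00768) and with DESeq2 (-0.79, adjusted p = 0.00306). Over its 8 alternatives and 7 omissions of a library, the adjusted p of *Neurod1* ranged from 1.54e-06 to 0.142.

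*Neurod2* and *Neurod6* are kept on in postmitotic projection neurons. *Neurod2* (ENSMUSG00000038255, chr11:98325415-98329648, minus strand) stood at 266, 258 and 213 CPM in control and at 167, 249, 253 and 196 CPM in the Sox9-labelled libraries, which overlapped. Its log2 fold change was -0.18 (SE 0.15, 95% interval -0.50 to 0.13, adjusted p = 0.358). *Neurod6* (ENSMUSG00000037984, chr6:55677822-55681263, minus strand) stood at 5030, 4110 and 4320 CPM in control and at 3470, 3720, 3480 and 3300 CPM in the Sox9-labelled libraries. All labelled libraries lay under all control libraries, by a small distance, as 3 of the 9 genes did (*Eomes*, *Neurod4* and *Neurod6*), beside 16.4% of all genes tested, whereas none of the 9 lay wholly above control, beside 22.9%. The log2 fold change of *Neurod6* was -0.36 (SE 0.11, 95% interval -0.59 to -0.13, adjusted p = 0.0206) and was not called. DESeq2 called it (-0.44, adjusted p = 0.00247), whereas on the deposited FPKM, which are not TMM-scaled, the log2 ratio of group means was -0.14 (exact permutation p = 0.171).

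**Figure D2:**
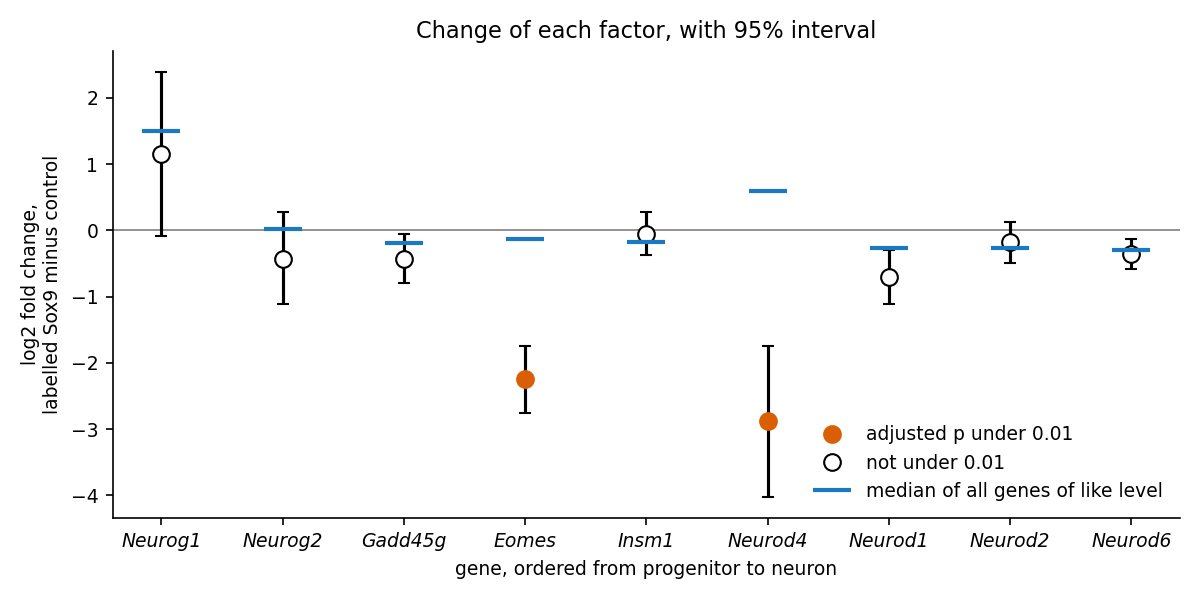
Log2 fold change of each factor (libraries labelled Sox9 minus control) with its 95% interval, filled where the adjusted p was under 0.01, and blue bars at the median change of all genes tested of like level. *Eomes* at -2.25 and *Neurod4* at -2.88 lie far from their bars at -0.13 and 0.59, while the intervals of *Neurog1*, *Neurog2*, *Gadd45g*, *Insm1*, *Neurod2* and *Neurod6* include their bars.

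Across all genes, the change depended on the level. Genes of at most 1 log2 CPM had a median log2 fold change of 1.55 (3275 genes, 675 called higher and 3 lower), and those between 1 and 4 had 0.28 (6237 genes). Between 4 and 7 log2 CPM the median was -0.20 (5405 genes, 65 called higher and 314 lower), and above 7 it was -0.27 (1605 genes). All 4 libraries labelled Sox9 had more genes with a count than any control library, 24219 to 27370 against 23387 to 23791. Read against this, *Neurod1*, *Neurod2* and *Neurod6* were below 0 as was the median of genes of their levels, and *Neurod4* fell among genes whose median was above 0. The part of this trend in the values of *Neurog1* was not tested.

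**Figure D3:**
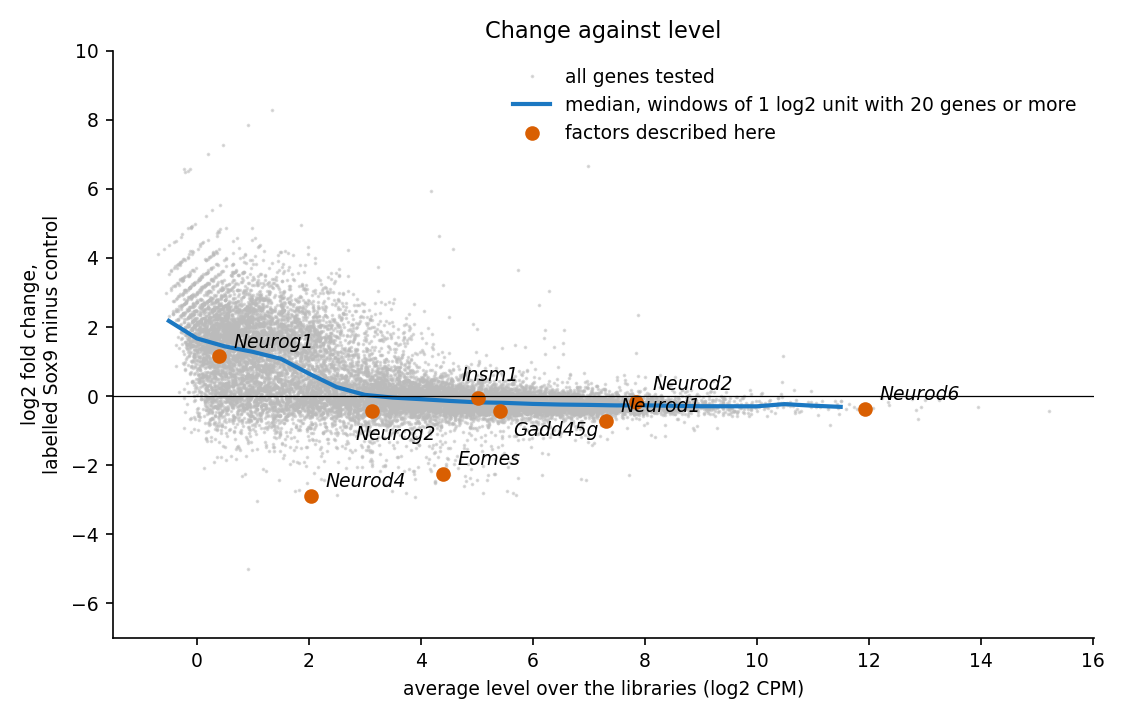
Log2 fold change of all 16522 genes tested (grey) against their average level over the 7 libraries in log2 CPM, with the running median in windows of 1 log2 unit (blue) and the 9 factors (orange). The median falls from above 1 at the lowest levels to about -0.3 at the highest, and *Eomes* and *Neurod4* lie at the lower edge of the cloud.

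To ask where along the cascade neighbours parted, the log2 ratio of each gene to the one before it was taken within each library, with a pseudocount of 1 CPM. Such a ratio does not move with library scaling other than through the pseudocount. It can, however, carry the dependence of the change on the level, where its genes differ in level. Each of the 8 ratios was compared by an exact permutation test, for which 0.0286 is the smallest p. The ratio of *Eomes* to *Gadd45g* was -1.19, 0.18 and -0.25 in control and -1.68, -2.27, -2.27 and -2.21 in the Sox9-labelled libraries, a difference of -1.69 (p = 0.0286, adjusted over the 8 ratios 0.0457 by exact permutation). The ratio of *Insm1* to *Eomes* went the other way, from 0.44, -0.38 and -0.46 to 1.64, 2.34, 1.84 and 1.80, a difference of 2.04 with the same p-values. The groups did not overlap in either ratio, so the unequal change of *Eomes* and its neighbours on both sides was larger than the spread between libraries.

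The ratio of *Neurod4* to *Insm1* was -2.19, -2.04 and -1.89 in control and -4.20, -4.53, -3.41 and -4.79 in the Sox9-labelled libraries, a difference of -2.19 (exact permutation p = 0.0286, adjusted 0.0457). *Neurod1* to *Neurod4* differed by 1.56 with no overlap of the groups, but with an exact permutation p of 0.0571, adjusted 0.0762. Later in the order, the ratio of *Neurod2* to *Neurod1* was 0.51, -0.07 and 0.52 in control and 0.87, 0.66, 1.04 and 0.65 in the Sox9-labelled libraries, a difference of 0.49 (exact permutation p = 0.0286, adjusted 0.0457). *Neurod1* was thus lower relative to *Neurod2* in all 4 labelled libraries, although it was not called by itself. *Neurod6* to *Neurod2* differed by -0.16 (exact permutation p = 0.429, adjusted 0.49) and *Gadd45g* to *Neurog2* by 0.03 (p = 0.971, adjusted 0.971), with overlapping groups in both. *Neurog2* to *Neurog1* differed by -0.97 (exact permutation p = 0.0286, adjusted 0.0457), a ratio that rests on the 5 to 21 counts of *Neurog1* per library. Genes of like level had median log2 fold changes of 0.02 for *Neurog2* and 1.5 for *Neurog1*. The part of the trend with level in this ratio was not tested. With a pseudocount of 0.5 CPM or on FPKM, the adjusted p of the ratios past the threshold became 0.0762 with the same directions. With 5 CPM these ratios stayed past the threshold, but *Neurod4* to *Insm1* shrank to -1.02 and *Neurog2* to *Neurog1* to -0.48.

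**Figure D4:**
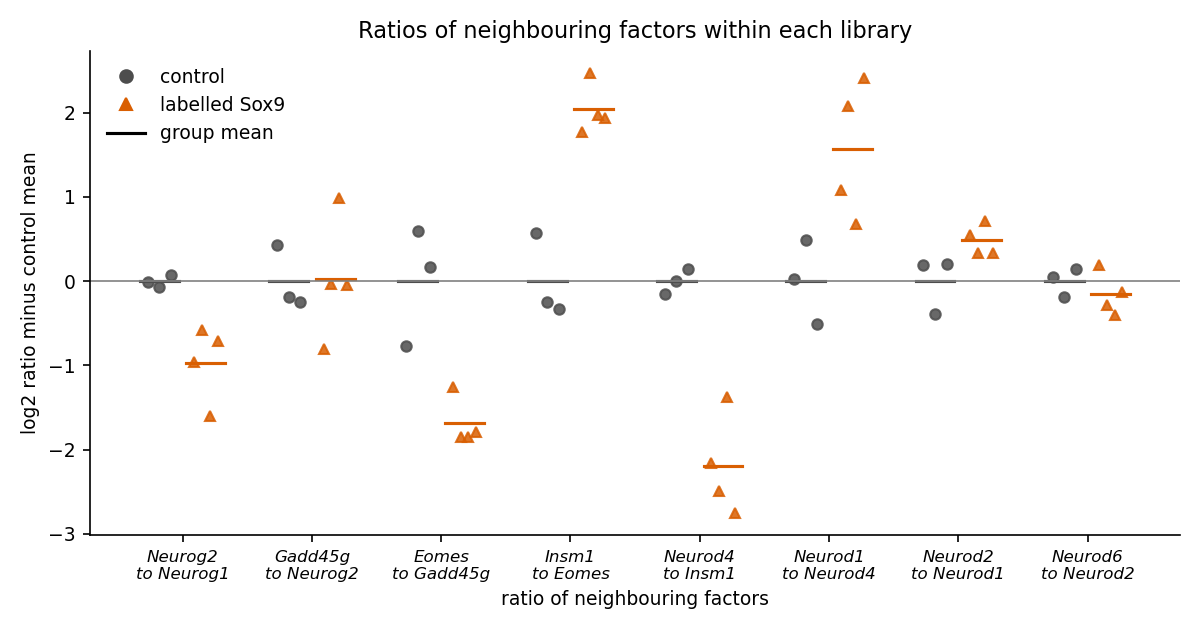
Log2 ratio of each factor to the one before it in the order, minus the control mean of that ratio, in the control libraries (circles) and those labelled Sox9 (triangles), with bars at group means. Eomes to Gadd45g and Neurod4 to Insm1 lie below 0 in all 4 labelled libraries, with means of -1.69 and -2.19, Insm1 to Eomes lies above with a mean of 2.04, and Neurod6 to Neurod2 and Gadd45g to Neurog2 straddle 0.

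Levels were compared between the 9 genes per kilobase of exon and total counts of the library (exonic RPKM), computed here from the counts. In control the order was *Neurod6* at 1900 ± 203 (SD, n = 3), *Neurod2* at 71.2 ± 6.57, *Neurod1* at 67.2 ± 19.3, *Gadd45g* at 38.8 ± 8.8, *Insm1* at 9.74 ± 0.338, *Eomes* at 8.25 ± 2.43, *Neurog2* at 4.09 ± 1.14, *Neurod4* at 1.99 ± 0.208 and *Neurog1* at 0.366 ± 0.174. The neighbours *Neurod2* and *Neurod1*, and *Insm1* and *Eomes*, overlapped in their ranges over the control libraries, while the other neighbours did not. Of the summed level of the 9 genes, *Neurod6* took 88.8 to 91.2% in control and 90.0 to 92.3% in the Sox9-labelled libraries, and *Eomes* 0.237 to 0.484% and 0.0773 to 0.134%. In the libraries labelled Sox9, *Eomes* at 2.03 ± 0.479 (SD, n = 4) followed *Neurog2* at 3.57 ± 1.65, and *Neurod4* at 0.292 ± 0.312 became the lowest, after *Neurog1* at 0.964 ± 0.626, with overlapping ranges in both pairs. The other factors kept their places, with *Neurod6* at 1730 ± 54.3, *Neurod2* at 73.2 ± 13.2, *Neurod1* at 48.0 ± 8.83, *Gadd45g* at 33.7 ± 5.89 and *Insm1* at 11.0 ± 1.16. The deposited FPKM follow the whole span of a gene and not its exons, so that *Neurod4*, whose span is 12089 bases for 3345 exonic bases, stands at 0.552 ± 0.0577 FPKM in control.

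Among 9455 protein-coding genes that averaged 50 or more normalized counts, the profiles most like that of *Eomes* over the 7 libraries were those of *Knstrn*, *Cdca5* and *Acsbg1*. Likeness was the root mean square difference of centred log2(CPM + 1), which was 0.144, 0.171 and 0.188. *Knstrn* (kinastrin) acts at kinetochores and the mitotic spindle, *Cdca5* (sororin) in sister chromatid cohesion, and *Acsbg1* activates fatty acids. Their own log2 fold changes were -2.17 (SE 0.25), -2.16 (SE 0.28) and -2.58 (SE 0.32). The profiles most like that of *Neurod6* were those of *Slc35a1*, *Gtdc1* and *Mark1*, with differences of 0.0287, 0.0436 and 0.049 and log2 fold changes of -0.41 (SE 0.13), -0.35 (SE 0.15) and -0.37 (SE 0.15). A likeness over 7 libraries in 2 groups mainly reflects the group difference and is a description.

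The bHLH system around the proneural factors was followed through lists of known genes. Each count of a list at an unadjusted p under 0.05 is to be read beside the 17.3% of all genes tested that were lower and the 26.8% that were higher at that threshold. For genes called by edgeR at an adjusted p under 0.01, the shares of all genes tested were 3.43% lower and 11.3% higher. None of the 3 E protein partners was called, with *Tcf3* at -0.19 (SE 0.25), *Tcf4* at -0.18 (SE 0.12) and *Tcf12* at 0.25 (SE 0.19), nor was any at an unadjusted p under 0.05 or by DESeq2. Of the 8 Id and Hes/Hey genes, which encode inhibitors of proneural factors, 7 were tested and none was called by edgeR, with a median of -0.48. At an unadjusted p under 0.05, 3 were lower and 1 higher, and DESeq2 called 2 lower. *Id1* (-1.92, SE 0.56, adjusted p = 0.0182) and the Notch targets *Hes1* (-1.46, SE 0.40, adjusted p = 0.0142) and *Hes5* (-1.28, SE 0.40, adjusted p = 0.0247) had the lowest values, while *Id3* was at 1.11 (SE 0.37, adjusted p = 0.0331). Without Control 1, 3 genes of this list were called lower, and without Sox9 2, 1 was called higher.

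Of 10 other neural bHLH genes, 7 were tested, of which 2 rose and none fell, beside 11.3% and 3.43% of all genes tested. *Atoh1*, the proneural factor of the rhombic lip, was counted 4, 4 and 10 times in the control libraries and 52, 41, 42 and 5 times in the Sox9-labelled ones (adjusted p = 0.00381). *Neurog3*, known from the endocrine pancreas, was counted 2, 2 and 3 times in control and 15, 12, 18 and 4 times in the Sox9-labelled libraries (adjusted p = 0.00484). Genes of like level had medians of 1.09 for *Atoh1* and 1.61 for *Neurog3*, with 25.8% and 19.2% of them called higher. Neither was called under loess with limma-trend, and leaving out Control 1, Control 2, Sox9 1 or Sox9 3 left none of the list called, and leaving out Control 4 or Sox9 2 left 1. *Nhlh1* and *Hes6*, which follow proneural factors in the cascade, had log2 fold changes of 0.01 (SE 0.26) and 0.02 (SE 0.29). Of the 5 relatives of *Eomes*, *Insm1* and *Gadd45g* outside the bHLH family, 4 were tested and none was called by edgeR or DESeq2, with 1 lower at an unadjusted p under 0.05. These were the T-box gene *Tbr1* (-0.43, SE 0.18, adjusted p = 0.0761), *Insm2* (0.94, SE 0.59), *Gadd45a* (0.22, SE 0.35) and *Gadd45b* (0.80, SE 0.53), and *Tbx21* was too low to be tested.

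Upstream, *Pax6*, which activates *Neurog2* and *Eomes* in radial glia, fell to 30.9 ± 6.94 (SD, n = 4) CPM from 68.4 ± 25.4 (SD, n = 3) in control (log2 fold change -1.15, SE 0.23, adjusted p = 0.00314). It was the 1 gene called of 5 upstream factors, of which *Sox2* was at -1.01 (SE 0.40), *Emx2* at -0.93 (SE 0.33), *Dmrta2* at -0.90 (SE 0.32) and *Lhx2* at -0.41 (SE 0.16). No gene of this list was called without Control 2, Control 4 or Sox9 3, nor under loess with limma-trend. Among 12 known targets of the proneural factors, 2 were called lower and none higher, with a median of -0.15. The fallen genes were *Rnd2*, a gene through which Neurog2 acts on neuronal migration, at -0.82 (SE 0.17, adjusted p = 0.00299), and *Btg2*, at -0.81 (SE 0.14, adjusted p = 0.00153). In this list, 1 gene was called lower without Sox9 4 and none under loess with limma-trend. The Notch ligand gene *Dll1* went the other way, at 0.78 (SE 0.20, adjusted p = 0.0101), and was above all control libraries in all 4 labelled libraries. It was not called, but 1 gene of the list was called higher without Control 1 or Sox9 1, with DESeq2, under loess with limma-trend, without a filter, with at least 10 counts in every library and at an adjusted p under 0.05. *Btg2*, *Sstr2*, *Mfng* and *Nhlh1* of this list also stand in that of BP genes.

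Of 10 further genes of BPs, 2 fell and 1 rose. *Mfap4*, which encodes a microfibril-associated glycoprotein, fell to 32.8 ± 5.45 (SD, n = 4) CPM from 74.0 ± 16.3 (SD, n = 3) in control (log2 fold change -1.17, SE 0.17, adjusted p = 0.00046). *Btg2* stood at 91.2, 90.9 and 103 CPM in control and at 68.5, 45.9, 50.9 and 52.4 CPM in the Sox9-labelled libraries, and it is the gene whose altered allele carries CreERT2 in both groups. *Cdkn1c*, a cell cycle inhibitor, rose from 36.2 ± 4.27 (SD, n = 3) to 137 ± 34.0 (SD, n = 4) CPM (log2 fold change 1.92, SE 0.18, adjusted p = 3.7e-05), and 1 gene of this list was called higher whichever library was left out. The median of this list was -0.26, so *Eomes* lay below all of these BP genes, the lowest of which was *Mfap4*.

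**Figure D5:**
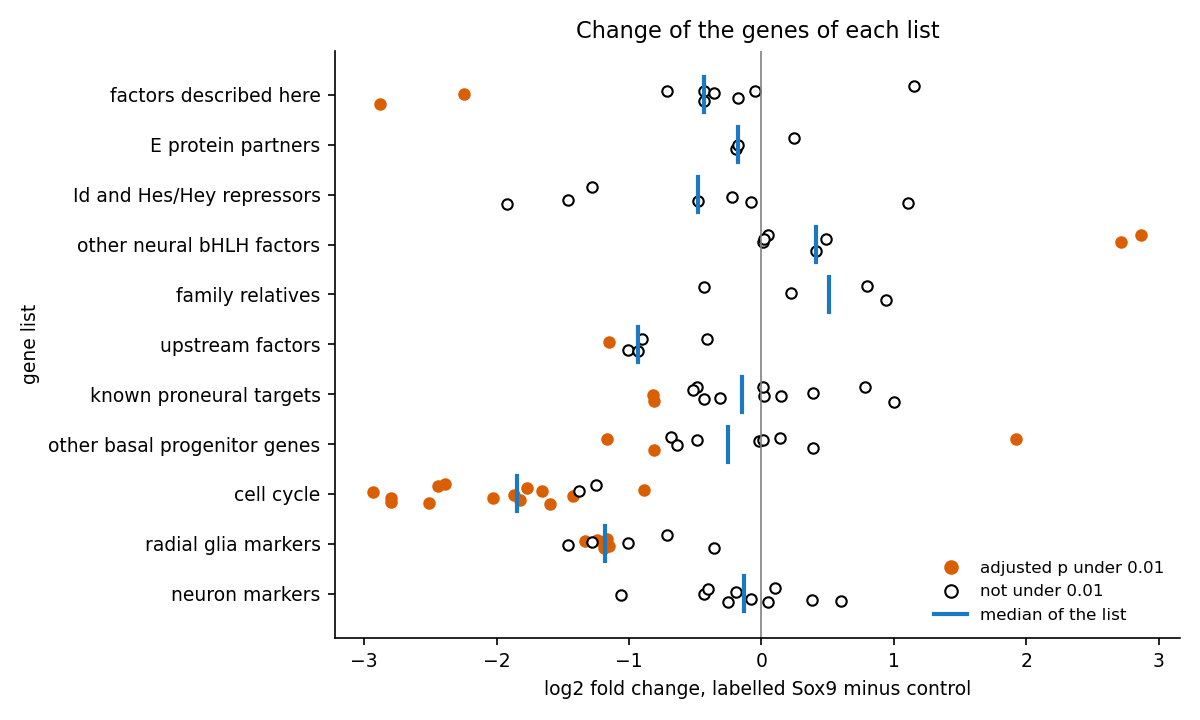
Log2 fold change of the genes tested in each list, filled where the adjusted p was under 0.01, with blue bars at the list's median, for the 9 factors, the bHLH system, upstream factors, targets and BP genes, and for cell cycle, radial glia and neuron genes. Medians are -0.43 for the 9 factors, -1.85 for cell cycle genes, -1.18 for radial glia markers and -0.13 for neuron markers.

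Genes of other cell states moved with *Eomes* and *Neurod4*. Of 16 cell cycle genes, 14 fell and none rose (median -1.85), and their summed level was 746 to 1360 CPM in control and 260 to 293 CPM in the Sox9-labelled libraries. Among them, those of smallest p were *Top2a*, a topoisomerase of dividing cells, which fell by 2.39 on the log2 scale, the mitotic kinase gene *Plk1*, which fell by 2.93, and the replicative helicase genes *Mcm3* and *Mcm2*, at -2.80 and -1.42. Of 10 radial glia markers, 5 fell and none rose (median -1.18), with a summed level of 833 to 1330 CPM in control and 494 to 621 CPM in the Sox9-labelled libraries. In this list, 3 genes were called lower without Control 2 or without Control 4, and *Pax6*, *Sox2*, *Hes1* and *Hes5* were already counted in other lists. None of 10 neuron markers was called by edgeR or DESeq2 (median -0.13), with 4 lower and 1 higher at an unadjusted p under 0.05 (17.3% and 26.8% of all genes tested). Without Control 1, 1 of them was called higher, and without a filter 2 were called lower and 1 higher. Their summed level was 9780 to 12500 CPM in control and 9700 to 11400 CPM in the Sox9-labelled libraries. The part of cell cycle and radial glia genes in the fall of *Eomes* and *Neurod4* was not tested, and in these bulk samples fewer cells of a type and less RNA per cell cannot be told apart. Neuron markers such as *Tubb3* (7190 ± 874 CPM, SD, n = 3, in control) were detected in all 7 libraries, which the labels call neural progenitors.

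Other lineages were present at low levels. Counts of their called genes are to be read beside the 11.3% of all genes tested called higher and the 3.43% called lower. At low levels the share called higher was larger, 20.6% up to 1 log2 CPM and 17.9% between 1 and 4. Of 5 markers of oligodendrocyte precursors, 4 were tested and all 4 rose, with a summed level of 0.61 to 1.39 CPM in control and 9.5 to 22.8 CPM in the Sox9-labelled libraries. *Olig2* had 0, 2 and 0 counts in control and 24, 6, 12 and 7 counts in the Sox9-labelled libraries, and 2 of this list were called without Control 1, Control 4, Sox9 1 or Sox9 3, and 1 under loess with limma-trend. Summed levels also differed for choroid plexus markers (0.956 to 1.42 CPM in control and 8.79 to 13.3 CPM in the Sox9-labelled libraries, with 2 of 3 tested called higher) and endothelial markers (2.58 to 8.95 and 13.6 to 33.0 CPM, 2 of 4 called higher). Without Control 1 or Control 2, 1 choroid plexus marker was called higher, without Control 2, 4 endothelial markers were, and under loess with limma-trend no marker of either list was. Erythroid markers summed to 1.82 to 24.4 and 13.9 to 92.4 CPM with 1 of 6 called higher, and microglia markers to 8.03 to 26.0 and 10.3 to 46.6 CPM with 1 of 5 called higher. No erythroid marker was called without Control 1, Control 4, Sox9 2 or Sox9 3, and 4 were called without Control 2, while the microglia call was lost without any 1 library other than Sox9 4. Astrocyte markers summed to 30.5 to 56.7 and 22.8 to 28.8 CPM with 1 lower and 2 higher of 4 tested, where the higher calls were 0 without Control 1 or Control 2 and 1 without any other library. Under loess with limma-trend, no marker of these 3 lists was called higher. Interneuron markers (4.26 to 4.78 and 7.94 to 12.8 CPM, 3 tested) and mural and meningeal markers (6.02 to 7.91 and 7.56 to 14.3 CPM, 4 tested) had no gene called by edgeR or DESeq2, with 1 and 2 genes higher at an unadjusted p under 0.05, as were 26.8% of all genes tested. No gene of these lists was at 0 in all control libraries, and the part of these cell types in the values of the 9 factors was not tested.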

How the data were processed

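The authors sequenced polyA RNA of 3 control libraries and 4 libraries labelled Sox9. Per the labels, reads were demultiplexed with bcl2fastq 2.17.1.14 and aligned to GRCm38 with STAR 2.5.2b, and adapters had been trimmed with cutadapt. Deposited by the authors were whole-number counts of reads per gene, not normalized, and FPKM values. The program that counted reads is not given in the sources used here. cDNA was amplified without molecular identifiers, so floors cover counting error only, while intervals of fold changes come from the fit and include the spread between libraries. FPKM of 6894 genes followed the span of the gene in 91.7% and its exonic length in 1.86% (within 2%).

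The counts were fitted in R 4.3.3 by edgeR 4.0.16 (TMM, filterByExpr, quasi-likelihood test, two-sided, no covariate), adjusted by Benjamini-Hochberg over 16522 genes with a threshold of 0.01, and limma 3.58.1 and DESeq2 1.42.0 were alternatives. The edgeR script was tested on simulated data. Genes of like level lie within 0.5 log2 CPM of a gene. Single values and ratios were compared by exact permutation tests over 35 splits (two-sided), ratios against an adjusted threshold of 0.05. Groups and replicate numbers follow the titles (Control 1, 2 and 4), and the descriptions, which call the libraries biological replicates, count the controls from 1 to 3. Symbols came from GENCODE annotation of GRCm38 (36345 of 38124 genes matched). The members and the 18 lists were chosen with earlier results of these data known. Named were all 9 members, *Sox9*, from the lists of the pathway (bHLH system, relatives, upstream factors, targets, BP and cell cycle genes) the called genes (at most the 4 of smallest p) and all genes of lists of at most 5, and the 3 genes most like *Eomes* and *Neurod6*. *Id1*, *Hes1*, *Hes5*, *Id3*, *Nhlh1*, *Hes6*, *Dll1*, *Tubb3* and *Olig2* were named after their values were seen. Values of some genes counted in the lists are not reported here.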

Additional observations from a re-analysis of the deposited data

Results flagged for a closer look

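Of 18 groups of 4 libraries examined, 1 held a library far from the others. The log2 ratio of *Eomes* to *Gadd45g* was -1.68 in Sox9 1, against -2.27, -2.27 and -2.21 in the other libraries labelled Sox9, a gap of 0.898 of the group's whole range, above Dixon's critical value for 4 samples. Chance alone gives such a gap in about 1 of 20 groups. The ratio in Sox9 1 was still below all control libraries, the lowest of which stood at -1.19.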

How the results depend on the processing

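*Eomes* and *Neurod4* kept their direction and their call under all alternatives that gave a value. Against 567 genes lower and 1862 higher, the counts lower were 1272 with DESeq2, 284 with cyclic loess and limma-trend, which changes scaling and test together, 1452 without a filter, 204 with at least 10 counts in every library and 1787 at an adjusted p under 0.05, and 208 to 475 when a library was left out, while those higher were 363 with loess and limma-trend, 638 with at least 10 counts, 3616 at 0.05, and 827 to 1590 when a library was left out. Of the 9 factors, 4 were called lower with DESeq2, without a filter and at 0.05, 1 with at least 10 counts, where *Neurog1* and *Neurod4* had no value, and 2 to 3 when a library was left out.

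The main fit did not pair libraries by replicate number. Correlations of same-numbered libraries were -0.0356, 0.118 and -0.00485 by the titles, of which 0.118 was the highest of any control and Sox9-labelled pair. So few correlations cannot show whether the libraries were paired. With a replicate block by titles, 218 genes were lower and 400 higher, and by descriptions 353 and 1034, with *Insm1* at 0.03 and *Neurod1* called at -0.71 (adjusted p = 0.00968).

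With loess and limma-trend, *Neurog1* was -0.49, *Insm1* 0.13 and *Neurod2* 0.06. *Insm1* was 0.09 with at least 10 counts and -0.08 to 0.08 when a library was left out. Further calls were *Neurod1* with DESeq2 (-0.79), without a filter (-0.80) and at 0.05 (-0.71), with -0.87 to -0.43 when a library was left out, *Neurod6* with DESeq2 (-0.44), without a filter (-0.45) and at 0.05 (-0.36), and *Sox9* without a filter (-0.78) and at 0.05 (-0.68), with -0.99 to -0.37 when a library was left out.

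With a pseudocount of 0.5 CPM or on FPKM, ratios lost the threshold (adjusted p = 0.0762) at -1.16 and -1.54 for *Neurog2* to *Neurog1*, -1.75 and -1.81 for *Eomes* to *Gadd45g*, 2.10 and 2.16 for *Insm1* to *Eomes*, -2.67 and -3.48 for *Neurod4* to *Insm1*, and 0.49 and 0.49 for *Neurod2* to *Neurod1*. At 5 CPM the same ratios stayed past the threshold and no other ratio passed it. Several were smaller, with -0.48 for *Neurog2* to *Neurog1*, -1.33 for *Eomes* to *Gadd45g*, 1.65 for *Insm1* to *Eomes*, -1.02 for *Neurod4* to *Insm1* and 0.4 for *Neurod1* to *Neurod4*. *Gadd45g* to *Neurog2* was -0.08. On FPKM, group means gave 0.17 for *Insm1*, 0.04 for *Neurod2* and -0.14 for *Neurod6*. The causes were not tested. Depth limits *Neurog1* and *Neurod4*, at 5 to 21 and 0 to 83 counts per library.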
